A study of Danio rerio with 2 samples.

Results

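The outermost megabase at both ends of 24 zebrafish chromosomes was examined for DNA recovered with an antibody to HA-tagged Npas4l. A peak belonged to a chromosome end when its summit lay within 1 Mb of base 1 (the left end) or within 1 Mb of the last base covered by a listed peak on that chromosome (the right end). Chromosome 4 was left out, and the other 24 chromosomes gave 48 ends. These ends held 7660 of the 192841 listed peaks, 3764 at right ends and 3896 at left ends. The interior of the same chromosomes, 1219 Mb in all, held 169804 peaks. Position alone chose the members, so no fold enrichment, p-value or q-value of a peak was used in choosing them. The rule itself was set with earlier results of these data known, and the right border rests on the last listed peak. The first listed peak began between 16 and 18374 bp after the start of its chromosome (median 2834 bp), so the left ends were covered almost to the tip. The distance from the last listed peak to the true right tip was not analysed here.

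The series compared 2 CUT&Tag libraries, in which an antibody directs the Tn5 transposase to a tagged protein so that the surrounding DNA is cut out and sequenced. The overexpression library, Npas4l-HA OE, came from fish carrying Tg(ubi:loxp-stop-loxp-Npas4l-HA) and Tg(gata1a:Cre-ERT2), and the control library came from fish carrying Tg(gata1a:Cre-ERT2) alone. Both libraries were made with the same mouse antibody to HA from 30 pooled adult ventricles each, from a cell pellet described as mostly platelets and erythrocytes and labelled as platelets. The authors deposited 1 list of peaks for both libraries, with positions on GRCz11 per the submitters' processing notes. In the overexpression fish the ubi promoter drives the tagged factor wherever the Cre has removed the stop, and the Cre is present in cells in which gata1a is active, a gene of the erythroid and thrombocyte lineages. Cre-ERT2 acts only after tamoxifen or a like ligand, and neither that treatment nor heart injury is given in the sources used here. In such bulk libraries, more cells with the tag and more tagged protein per cell cannot be told apart. Marker genes of platelets and the transgene were not analysed here, because no GRCz11 genome or annotation was used.

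Npas4l, the product of the gene known as cloche, belongs to the bHLH-PAS transcription factors and stands near the top of the programme forming endothelial and blood cells in the zebrafish embryo. Zebrafish platelets, usually called thrombocytes, and zebrafish erythrocytes keep their nuclei, so their chromosomes can be profiled. Chromosome ends carry telomere repeats at the tip and, inward of them, subtelomeric DNA that is often rich in repeats and in duplicated sequence. In zebrafish, meiotic crossovers are concentrated towards the chromosome ends, above all in males.

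Each group had 1 library, which allows no test over samples, and neither peaks nor chromosomes are replicates of a condition. Every value therefore compares these libraries, and differences between ends and interior are given with the spread over chromosomes as a description. Intervals are 95% intervals that cover counting error only; neighbouring peaks are not independent, and fragments copied by PCR are not independent molecules. For each peak the number of overexpression fragments over the summit, and the background taken to come from the control, were solved from the deposited fold enrichment and p-value. That the control library supplied the background was inferred from regular steps in the solved values. The peak-calling command is not given in the sources used here. The background is counted in control fragments scaled to the overexpression library, at 0.552 per control fragment, and it never fell below a genome-wide value of 0.994.

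Listed peaks were somewhat denser at the ends, and those at a q of 0.05 or less were denser still, though the excess was not resolved among peaks of the lowest q (-log10 q of 5 or more), whose ratio is given below. All listed peaks numbered 159.6 per Mb at the ends (156.03 to 163) and 139 per Mb in the interior (138.6 to 139.97), a ratio of 1.146 (1.12 to 1.17). In the authors' deposited table, 629 of the 7660 end peaks (8.21%) stood at a q of 0.05 or less (Wilson interval of the share 7.62% to 8.85%), against 5.49% of the whole list. The interior of the same chromosomes had 8612 such peaks, or 5.07% of its listed peaks (4.97% to 5.18%). Per Mb this was 13.1 peaks at the ends and 7.07 in the interior, a ratio of 1.85 (1.71 to 2.01). At a q of 0.01 or less, which 2.69% of the whole list reached, the ends held 330 peaks and the interior 4119, a density ratio of 2.03 (1.81 to 2.28). The listed p treats the background as known. When the control's counting error was included at peaks above the genome-wide background, 208 end peaks (2.72%) kept the 0.05 level. In the interior 3475 peaks did (2.05%), and in the whole list 2.18%, and the density ratio was 1.52 (1.32 to 1.75). Peaks of this q at the genome-wide background, 59 at the ends and 1675 in the interior, were not retested and are all counted here. The fall from 1.85 to 1.52 thus does not measure the control's counting error alone.

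The excess at a q of 0.05 or less was found on every one of the 24 chromosomes when its ends were pooled. The ends averaged 13.1 ± 2.63 such peaks per Mb and the interiors 7.06 ± 0.994 (SD over chromosomes, n = 24), and the difference within a chromosome was 6.05 ± 2.54. Of the 48 single ends, 45 lay above the interior of their own chromosome. At a q of 0.01 or less the pooled ends were higher on 22 chromosomes and lower on 2. By the stricter binomial test at the 0.05 level they were higher on 20 and lower on 4, and 38 of the 48 single ends lay above their interior. The number at an end ran from 5 to 23 with a median of 13. Of the 1210 interior windows of 1 Mb, 89 (7.36%) held 13 or more, and their median was 6. The richest of the 1210 interior windows held 97 such peaks and the richest of the 48 ends held 23, a comparison of extremes between sets of unlike size.

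Chromosomes differed in which end was rich. At this q, the right end of chromosome 21 held 11 peaks and its left end 23, against 6.35 per Mb of interior. On chromosome 8 the right end held 13 and the left end 21, against 9.04 per Mb. Chromosomes 5 and 7 also had rich left ends, with 20 peaks each, beside 16 and 11 at their right ends. The reverse order was seen on chromosome 17, with 22 peaks at the right end and 12 at the left, against 8.10 per Mb of interior. Chromosome 15 had 21 at the right end and 9 at the left. Chromosome 11 had 17 at the right end and 5 at the left, and that left end was below its interior of 7.24 per Mb. Only 2 ends besides lay below their interiors by the same measure, both left ends: that of chromosome 20, with 5 against 6.68 per Mb, and that of chromosome 12, with 7 against 7.36. On chromosomes 13, 16, 19 and 24 both ends held between 11 and 14. The lowest ratio of ends to interior was 1.20, on chromosome 20, and the highest 2.68, on chromosome 21. Chromosome 1 had the sparsest interior, 5.07 per Mb, with 15 at the right end and 12 at the left.

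**Figure D1:**
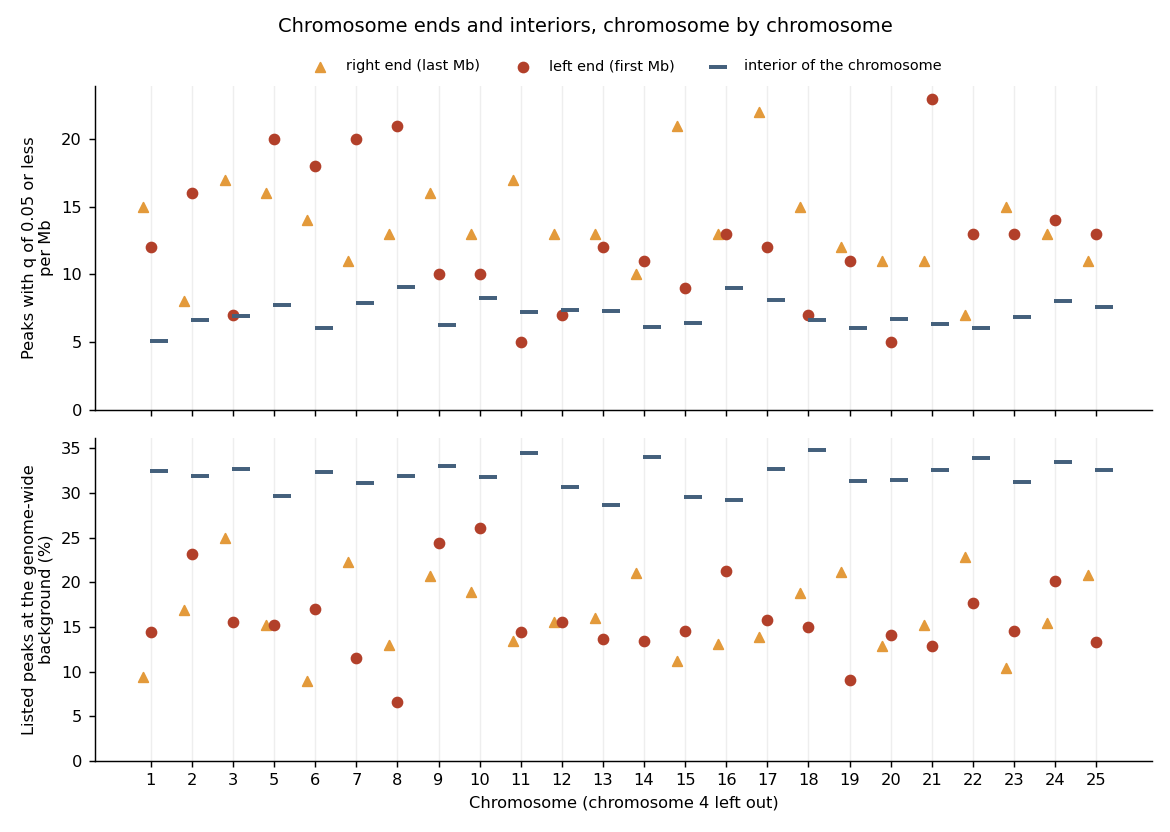
Peaks with a q of 0.05 or less per Mb (top) and the percentage of listed peaks that stood at the genome-wide background (bottom), for the right end (triangles), left end (circles) and interior (bars) of each of 24 chromosomes. Of the 48 ends, 45 lie above the interior of their own chromosome in the top panel, and all 48 lie below it in the bottom panel.

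The ends taken as 2 classes were alike in their total number of peaks, and at a q of 0.05 or less the richer end varied from chromosome to chromosome. The differences on single chromosomes were not set against counting error. At a q of 0.05 or less, right ends held 327 peaks and left ends 302, a ratio of 1.08 (0.923 to 1.27). The right end was the richer on 13 chromosomes, the poorer on 10 and equal on 1, and the difference right minus left was 1.04 ± 6.87 peaks (SD, n = 24). All listed peaks had a ratio of right to left of 0.966 (0.924 to 1.01). As a description over the 24 chromosomes, which share both libraries, the numbers of all listed peaks at the right and left end had a Pearson correlation of 0.51, and the numbers with a q of 0.05 or less one of -0.28.

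With right and left ends pooled, listed peaks were densest in the outermost 100 kb, and those at a q of 0.05 or less thinned out over several megabases. In the outermost 100 kb the listed peaks numbered 179 per Mb, and 860 peaks in all lay there. At right ends alone this stretch was the densest, with 187 per Mb (169.8 to 204.8). Distances there are counted from the last listed peak, so it holds a peak by construction. At left ends it had 172 per Mb (155.5 to 189.1), and the densest 100 kb, with 194 (176.9 to 212.6), lay between 200 and 300 kb. Between 500 and 600 kb from the end the pooled density was 143.5 per Mb, and from 10 Mb inward it was 141. Those at a q of 0.05 or less numbered 16.7 per Mb in the outermost 100 kb and 18.75 between 100 and 200 kb. The fall was uneven within the ends, with 9.58 per Mb between 500 and 600 kb and 13.75 between 800 and 900 kb. Between 900 and 1000 kb there were 9.79 per Mb, between 1 and 1.5 Mb 10.2, between 3 and 5 Mb 7.51, and from 10 Mb inward 6.74. The 1 Mb border thus cut across a decline in density and did not mark a step in it. At the border itself, the 48 peaks just inside had a median of 5 overexpression fragments over a background of 1.28, and the 48 just outside had 5 over 1.27. Their median ratios were 3.22 inside and 3.62 outside, a difference that was not set against counting error. The closest pair across a border lay on the right arm of chromosome 16: the inner member, from 54264968 to 54265264, had 4 fragments, and the peak outside it, from 54263846 to 54264285, had 6, both at the genome-wide background.

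**Figure D2:**
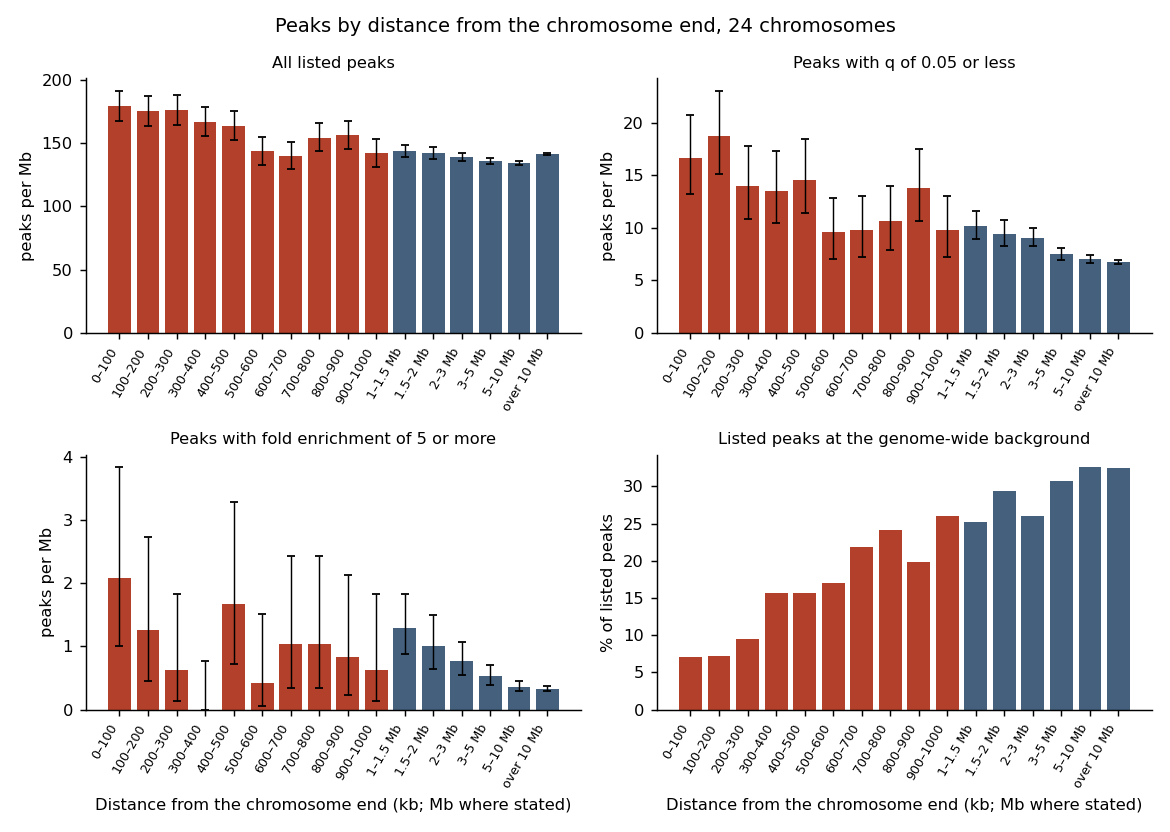
Peaks per Mb by distance of the summit from the nearer chromosome end, for all listed peaks, for those at a q of 0.05 or less and for those enriched 5-fold or more, and the percentage of listed peaks at the genome-wide background. Red bars are 100 kb steps within the ends, blue bars wider steps of the interior, and error bars exact Poisson 95% intervals; the share at the genome-wide background is 7.09% in the outermost 100 kb and 32.4% from 10 Mb inward.

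The control library was also higher under the peaks of chromosome ends. Only 1218 of the 7660 end peaks, 15.9% (15.1% to 16.7%), stood at the genome-wide background, against 54114 interior peaks, 31.9% (31.6% to 32.1%), and 30.7% of the whole list. The share was lower at all 48 ends than in the interior of the same chromosome. It ran from 6.63% at the left end of chromosome 8 to 26.1% at the left end of chromosome 10, while the interiors lay between 28.7% and 34.8%. The median background was higher than in the own interior at all 48 ends as well, 1.55 ± 0.113 at the ends and 1.11 ± 0.00086 in the interiors (SD over chromosomes, n = 24). The share at the genome-wide background rose inward. It was 7.09% in the outermost 100 kb and 15.7% between 400 and 500 kb. Between 900 and 1000 kb it was 25.99%, and from 10 Mb inward 32.4%. Counted per Mb, such peaks numbered 12.7 in the outermost 100 kb and 45.8 from 10 Mb inward. In the outermost 100 kb the share was 9.15% at right ends and 4.85% at left ends, and from 100 to 200 kb 9.66% and 4.69%. From 200 to 300 kb the order turned, with 8.47% and 10.3%. These differences were not set against counting error.

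The wider windows set the background more often at the ends. The background of a peak is the highest of the genome-wide value and the control's density over the summit, over 1 kb and over 10 kb. The density over 10 kb, the class of backgrounds that matched no other step, set it for 20.4% of end peaks and 9.32% of interior peaks. That over 1 kb set it for 22.5% and 18.5%. The control at the summit itself set it for much the same shares, 41.3% and 40.3%. Very high backgrounds did not become more frequent in step: a background of 20 times the genome-wide value or more occurred at 0.854 peaks per Mb at the ends and 0.811 in the interior. From 5 to 20 times the densities were 8.35 and 3.44 per Mb, and from 2 to 5 times 43.2 and 19.8. Backgrounds of 5 times or more, at 3.54% of the whole list, were found at 442 end peaks, or 5.77%, and at 5181 interior peaks, or 3.05%.

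The ratio of overexpression fragments to background at listed peaks was lower at the ends. Its median was 3.20 at the ends and 3.62 in the interior, and 45 of the 48 ends lay below their own interior. The ratio that the list admits depends on the background: at the genome-wide background 3 fragments, a ratio of 3.02, were needed for a p of 0.05, whereas at 5 times that background 9 fragments and a ratio of 1.81 were enough. Among peaks of like background the medians were close. At the genome-wide value they were 4.02 at the ends and 4.02 in the interior, and above it and under 2 times 3.62 and 3.62. From 2 to 5 times they were 2.72 and 2.59, from 5 to 20 times 2.04 and 2.11, and at 20 times or more 2.38 and 2.49. At the genome-wide value the ratio moves only in steps of whole fragments, so equal medians there cannot show likeness.

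Within the lower backgrounds, end peaks reached a q of 0.05 more often than interior peaks. At the genome-wide value, 4.84% of end peaks did so (3.77% to 6.20%), against 3.10% of interior peaks (2.95% to 3.24%). Above it and under 2 times, the shares were 7.16% (6.39% to 8.01%) and 4.41% (4.28% to 4.55%). From 2 to 5 times they were 9.69% (8.49% to 11.03%) and 6.17% (5.88% to 6.48%). From 5 to 20 times the order turned, with 14.7% (11.6% to 18.5%) at the ends and 18.7% (17.5% to 19.9%) in the interior, and at 20 times or more it was 70.7% (55.5% to 82.4%) and 86.2% (84.0% to 88.3%). Counted per Mb, the excess at a q of 0.05 or less was widest from 2 to 5 times, where it was 3.42-fold. At the genome-wide value the density at the ends was 0.894 times that of the interior, from 59 end peaks. No interval was set on either ratio, so a deficit at the genome-wide value is not resolved. What part the raised control plays in the excess was not tested beyond these classes.

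**Figure D3:**
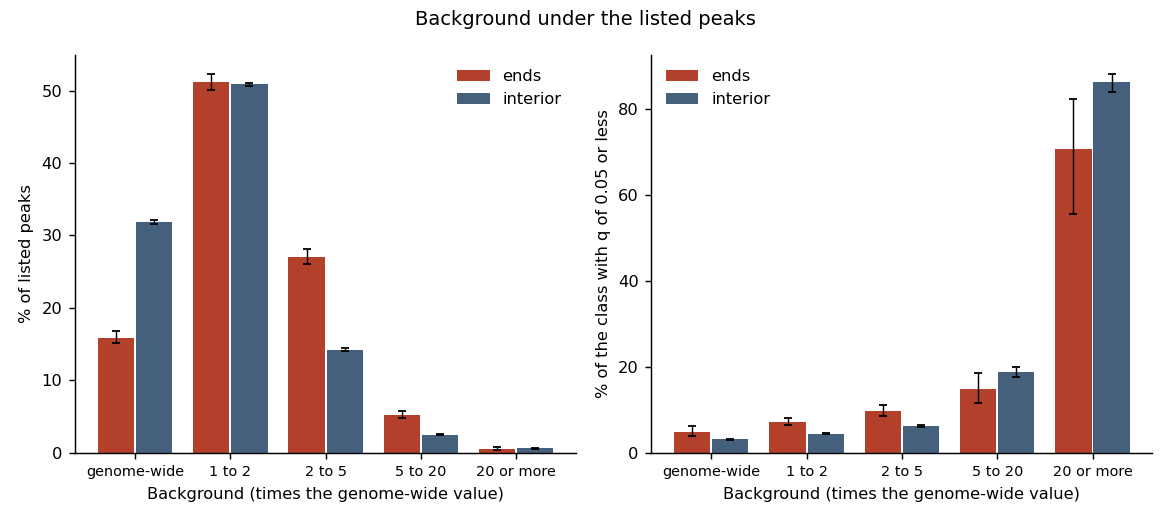
Left, the percentage of listed peaks in 5 classes of background, given in multiples of the genome-wide value of 0.994, at ends (red) and in the interior (blue). Right, the percentage of each class with a q of 0.05 or less; error bars are Wilson 95% intervals, and the ends are above the interior in the 3 lower classes (4.84% against 3.10% at the genome-wide value) and below it in the 2 higher ones.

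End peaks were close to interior peaks in size. The median width was 228 bp at the ends and 222 bp in the interior, and the median summit had 5 overexpression fragments in both. The gap to the preceding listed peak had a median of 3954 bp at the ends and 4586 bp in the interior. Of the 10 kb stretches at the ends 20.4% held no listed peak, and of those in the interior 25.0%. Wide peaks of 800 bp or more, 0.685% of the whole list, numbered 55 at the ends, or 0.718% of end peaks (0.552% to 0.933%), and 1037 in the interior, or 0.611% (0.575% to 0.649%).

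The peaks with the lowest q at the ends were of mixed height, and those at the top of the order were tall in both libraries. A -log10 q of 5 or more, reached by 0.747% of the whole list, was found at 57 end peaks, or 0.744%, which is close to that background. In density the ends held 1.19 such peaks per Mb (0.899 to 1.54) and the interior 0.935 (0.882 to 0.991), a ratio of 1.27 (0.955 to 1.66). Its direction was not kept: 18 of the 57 lay in the outermost 100 kb, and the ratio was 0.965 without that stretch. By the stricter binomial test, which changes more than the control's counting error, the ratio was 0.906. In the interior these peaks are concentrated in 33 stretches of 100 kb that hold 10 or more each, none of which lay at an end. Without those stretches the ratio was 2.81. They were picked by their count of this same class and all lay in the interior, so leaving them out could only raise the ratio. Of the 57 peaks 33 lay over a background 5 or more times as high as the genome-wide value, or 57.9%, against 944 of 1140 in the interior, or 82.8%. The other 24 lay over lower backgrounds, and 4 of them stood at the genome-wide value with 12 or 13 overexpression fragments.

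The lowest q at an end belonged to a peak on the right arm of chromosome 17, from 53383517 to 53383727, with its summit 75769 bp from the end. It had 637 overexpression fragments and 458 control fragments over the summit, which is a ratio of 2.52 (2.23 to 2.85) after scaling. On chromosome 12, from 49031945 to 49032505, there were 278 overexpression and 129 control fragments, a ratio of 3.90 (3.16 to 4.85). The third lay at the very tip of chromosome 10, from 80 to 1098, with 398 overexpression and 243 control fragments and a ratio of 2.97 (2.52 to 3.49). In these leading peaks the control was itself far above its genome-wide level. Among the 41 end peaks with a background of 20 times the genome-wide value or more the median ratio was 2.38, and all 3 leading peaks lay above it. This follows in part from their choice by q, which at a like background is lower where the ratio is higher.

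Chromosome 6 had a tall peak at each end. At its right end, from 60191309 to 60192008, 306 overexpression fragments stood against 164 control fragments, a ratio of 3.38 (2.79 to 4.11). At its left end, from 83000 to 83706, there were 308 and 182, a ratio of 3.06 (2.54 to 3.70). The pair lay 69594 and 83381 bp from their ends and differed by less than their counting intervals. The right end of chromosome 18, from 50794097 to 50794791, had 332 and 196 fragments and a ratio of 3.07 (2.56 to 3.68). The right end of chromosome 7, from 74121687 to 74122124, had 253 and 147 and a ratio of 3.12 (2.53 to 3.84). The left end of chromosome 13, from 24550 to 24924, had 234 and 145 and a ratio of 2.92 (2.36 to 3.62). These 3 were alike in ratio, their intervals overlapping widely.

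Chromosome 15 gave the ninth and the tenth, and they were unlike each other. At the right end, from 47266473 to 47267175, 75 overexpression fragments stood against 21 control fragments, a ratio of 6.47 (3.94 to 11.05), the highest among the 10. At the left end, from 17 to 851, which is the tip of the chromosome, there were 149 overexpression fragments. The 547 control fragments of the 1 kb around the summit set the background at 46.6, which gives a ratio of 3.20 (2.65 to 3.84). Among all peaks of the 24 chromosomes, the first of these 10 ranked 81 by -log10 q and the last 294, so the most extreme peaks of the genome did not lie at the ends.

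Some of the tips themselves carried tall peaks. The outermost listed peak had a background of 5 times the genome-wide value or more at 11 of the 48 ends, or 22.9% (13.3% to 36.5%), against 5.66% (5.16% to 6.20%) of the other end peaks. At 7 of these 11 it was 20 times or more. The right ends gave 4 of the 11 and the left ends 7. The tips of chromosomes 10 and 15 are described above. At the left tip of chromosome 2, from 60 to 371, 174 overexpression fragments were found at a background of 63.0 and the ratio was 2.76. At the right tip of chromosome 17, from 53459156 to 53459410, there were 111 over 31.5, a ratio of 3.53. At the right tip of chromosome 3, from 62627741 to 62628255, there were 123 over 67.0, a ratio of 1.84, and at the left tip of chromosome 24, from 491 to 766, there were 49 over 32.6, a ratio of 1.50. At the left end of chromosome 16 the outermost peak, from 8341 to 8787, had 116 over 30.4, a ratio of 3.82. These 7 peaks were picked for their high background, so a high control at each follows from that choice. Their ratios ran from 1.50 to 3.82.

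Most tips were ordinary. The median outermost peak had 6.5 overexpression fragments over a background of 2.21, and 7 of the 48 stood at the genome-wide background with 3 or 4 fragments. At the left ends the outermost peak nearest to base 1 was that of chromosome 2, whose summit lay 186 bp from it. The farthest was on chromosome 19, from 18375 to 18539, with 10 fragments over 4.42. The right ends allow no such order, because the last base of the outermost peak is itself the point from which distances there are counted.

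**Figure D4:**
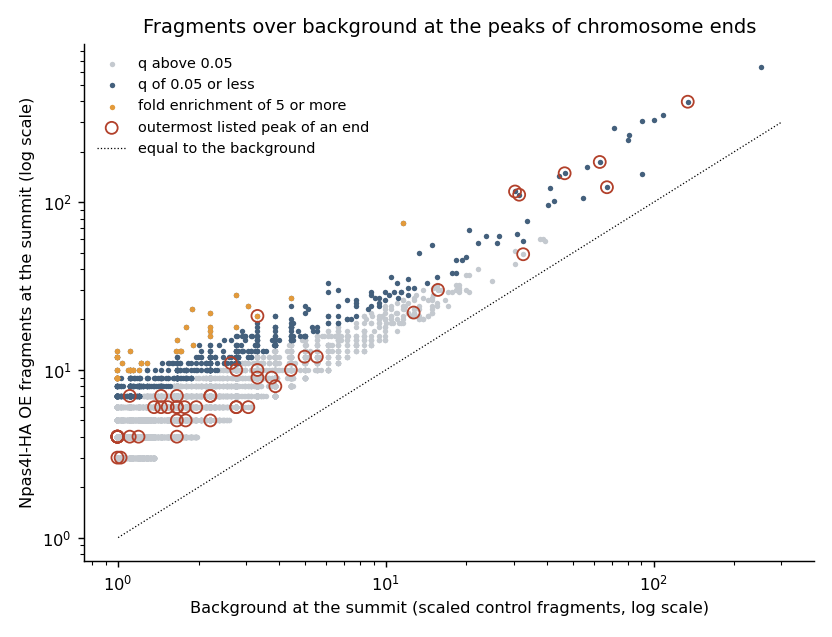
Overexpression fragments over the summit against the background from the control, both on log scales, for the 7660 end peaks, with peaks at a q of 0.05 or less in blue, those enriched 5-fold or more in orange and the outermost listed peak of each of the 48 ends ringed. The dotted line marks equality; the ringed peaks spread from 3 fragments over 0.994 to 398 over 134.2.

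A different set of end peaks had few control fragments and a high fold enrichment. The deposited fold enrichment is the overexpression fragments plus 1 over the background plus 1. In the authors' deposited table it was 5 or more at 46 end peaks, or 0.601% (0.451% to 0.800%), against 0.303% of the whole list and 485 interior peaks, or 0.286% (0.261% to 0.312%). Per Mb there were 0.958 such peaks at the ends (0.702 to 1.28) and 0.398 in the interior (0.363 to 0.435), a ratio of 2.41 (1.74 to 3.26). For a ratio of 5 or more with nothing added, the density ratio was 1.02. That class is wider: it admits peaks of 5 fragments at the genome-wide background, where a fold enrichment of 5 needs 9. A ratio cut-off of like strictness was not run, so the added fragment and the looser cut-off cannot be told apart. Of the 46 peaks 1 had a background of 5 times the genome-wide value or more and 16 stood at that value. They shared 20 peaks with the 57 of lowest q, which is 43.5% of the high-fold peaks and 35.1% of those of lowest q.

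The highest fold enrichment at an end was on the left arm of chromosome 9, from 35761 to 36820, a peak 1060 bp wide. It had 23 overexpression fragments, and 222 control fragments in 10 kb around it gave the background. The ratio was 12.2 (7.56 to 18.7), and the authors' deposited table has a fold enrichment of 8.31. The peak that came second, at 41354303 to 41355055 on chromosome 24, had 28 overexpression and 5 control fragments over its summit, a ratio of 10.1 (3.87 to 33.6). The third, on chromosome 15 from 47353329 to 47354272, had 22 and 4, a ratio of 9.96 (3.38 to 39.7). The intervals of these 3 overlap, so their order by ratio is not resolved.

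The fourth, at 45186111 to 45186663 on chromosome 21, had 13 overexpression fragments and at most 1 control fragment over the summit, since its background was the genome-wide value. With the control set to a floor of 3 fragments over the summit, the overexpression library was at least 7.85-fold higher, leaving aside the counting error of the 13 fragments. The fifth, on chromosome 18 from 50961258 to 50961636, had 18 overexpression fragments, and 21 control fragments in 1 kb set its background, for a ratio of 10.1 (5.06 to 19.9). Among all peaks of the 24 chromosomes these 5 ranked 14, 23, 34, 40 and 48 by fold enrichment. All 5 except that of chromosome 9 lay at right ends, between 59053 and 815713 bp from the end.

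These high-fold peaks were spread thinly, with 26 of the 48 ends holding at least 1. The right end of chromosome 24 held the most, 5 peaks. There, besides the second-ranked peak, a peak from 42169338 to 42169917 lay 724 bp from the end, with 13 fragments over 1.10. Another on the same end, from 42119015 to 42119512, had 24 fragments over 3.05. The right end of chromosome 18 and the left end of chromosome 2 held 4 each. On chromosome 18 a pair lay within 59053 bp of the end, with 18 fragments each over backgrounds of 1.79 and 2.76. No 100 kb stretch of an end held more than 2 such peaks. In density, they stood at 2.08 per Mb in the outermost 100 kb (0.999 to 3.83), 1.29 between 1 and 1.5 Mb, 1 between 1.5 and 2 Mb, 0.771 between 2 and 3 Mb, and 0.324 from 10 Mb inward. Within the ends there was no even decline: none lay between 300 and 400 kb, 1.67 per Mb between 400 and 500 kb and 0.625 between 900 and 1000 kb. The 0.5 Mb steps just beyond the border were thus no sparser than the 0.958 per Mb of the ends as a whole, and with ends of 2 Mb the ratio to the interior was 2.86.

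Local clusters at single ends were of high background and not of high fold. On the right arm of chromosome 21, between 400 and 500 kb from the end, 26 peaks with such a high background (5 times the genome-wide value or more) lay between 45450803 and 45487030. Their median background was 12.3 and their median ratio 1.80, and 5 peaks of that stretch reached a q of 0.05. On the left arm of chromosome 5, 14 such peaks lay between 815404 and 878526, with a median background of 11.5 and a median ratio of 1.98. The richest stretches for a q of 0.05 or less were the outermost 100 kb of the left end of chromosome 2 and the stretch from 800 to 900 kb on the left of chromosome 8, with 6 peaks each. Their median backgrounds were 1.33 and 1.11 and their median ratios 5.94 and 6.56. The clusters of high background were thus at other ends than these richest stretches by q. The difference is slight for the cluster on chromosome 21, whose 5 peaks put it among the stretches next in order. Which genes lie there was not analysed here.

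**Figure D5:**
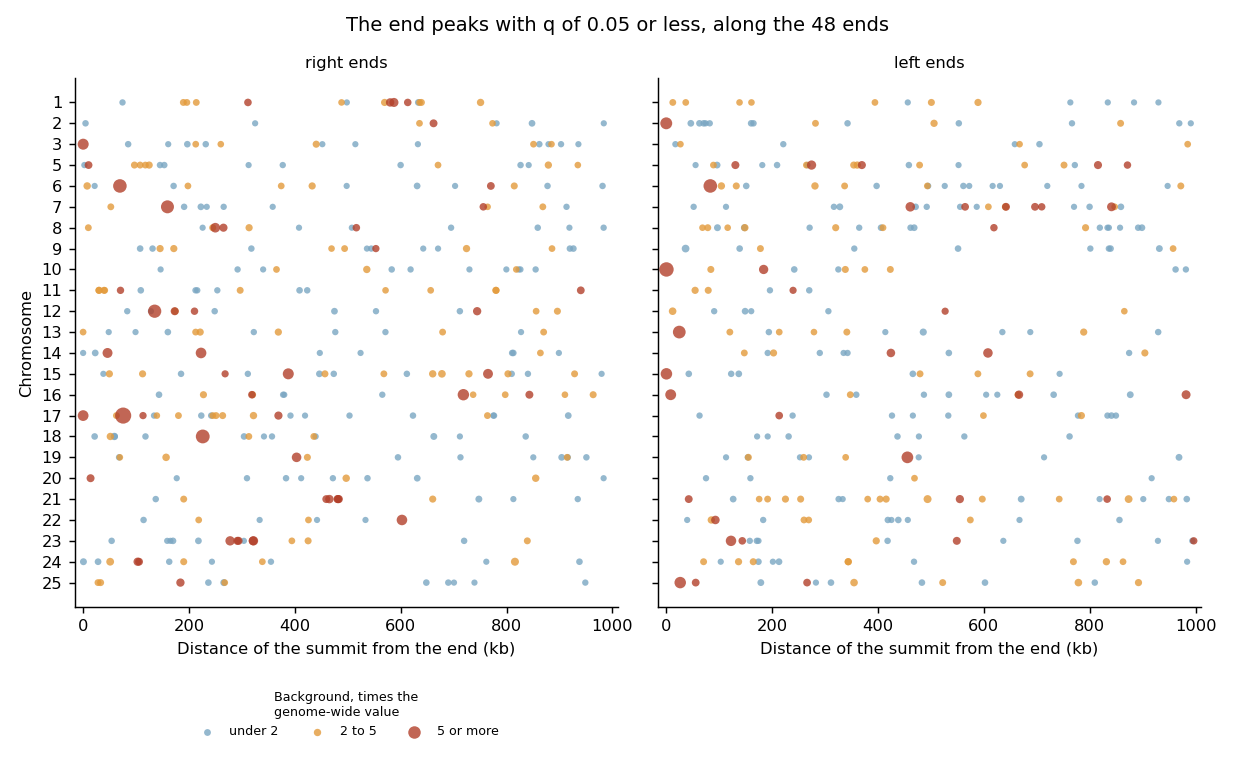
The 629 end peaks with a q of 0.05 or less, placed by the distance of their summit from the chromosome end in kb, for the right ends (first panel) and left ends (second panel) of 24 chromosomes. Point area grows with the overexpression fragments over the summit, and colour gives the background in multiples of the genome-wide value; tall peaks of high background sit at or near several tips, among them the left tips of chromosomes 10, 15 and 2.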

How the data were processed

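The values come from 1 list of 10 columns without a header. The submitters' processing notes name FastQC 0.11.4, Trim Galore 0.6.0, Bowtie2 2.4.5, SAMtools 1.15.1, Picard 2.1.0, MACS2 2.2.7.1, deepTools 3.5.0 and GRCz11; settings, duplicate handling and pooling are not given in the sources used here. Per the deposited file, each peak has a fold enrichment (ratio over the background), a -log10 p-value, a -log10 q-value and a score. Kept duplicates would raise fragment numbers.

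The number of overexpression fragments t and the background b were solved from fold = (t + 1)/(b + 1) and the Poisson p, matching within a relative difference of 5e-05 for 192839 rows. On simulated data, 4000 peaks were recovered (100%). They were made with the same formulas and had backgrounds above the genome-wide value, so peaks at that value or with the fewest fragments were not covered. Backgrounds above the genome-wide value were assigned to the summit or to 1 kb by their steps, with a mean fragment of 154 bp. Those that matched neither step were assigned to 10 kb. A one-sided exact binomial test that includes the control's counting error was an alternative. It gives the probability of t or more fragments, where the listed p is that of more than t, and was held to the same cut-off. Peaks at the genome-wide background kept their listed p. Shares have Wilson intervals, densities exact Poisson intervals, and ratios of counts or densities exact Clopper-Pearson ones. Python 3.11.15, SciPy 1.17.1 and pandas 2.3.3 were used. Named peaks were the 10 end peaks of highest -log10 q, the 5 of highest fold enrichment, the outermost peaks nearest to and farthest from the tip, and the closest pair across a 1 Mb border; others were chosen after their values were seen. Members and rules were chosen with earlier results of these data known. The planned motif and gene analyses need a genome of the build and were not run.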

Additional observations from a re-analysis of the deposited data

How the results depend on the processing

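The density ratio of ends to interior stayed above 1 under every alternative run, except at a -log10 q of 5 or more. For a fold enrichment of 5 or more almost no excess was left, 1.02, when the ratio was taken with no fragment added. No interval was set on that value. Leaving out the outermost 100 kb, and the 100 kb stretches with 10 or more peaks, were chosen after seeing the data. The second could only raise the ratio, because all such stretches lay in the interior. For all listed peaks, 1.146 became 1.23 with ends of 0.5 Mb, 1.09 with 2 Mb, 1.08 over 10 kb stretches with a peak, 1.11 with peaks under 1 kb apart as 1 site (1.113) and 1.11 at backgrounds under 5 times. For a q of 0.05 or less, 1.85 became 2.17 with 0.5 Mb, 1.65 with 2 Mb, 2.01 with joined sites and 2.03 at a q of 0.01. It became 1.52 by the stricter binomial test. There the 59 end and 1675 interior peaks at the genome-wide background kept their listed p and all passed. Peaks with -log10 q at or above 5 had 1.27, which became 1.74 with 0.5 Mb, 2.13 with joined sites, 1.80 as a mean over chromosomes, 3.11 at backgrounds under 5 times and 2.81 without dense stretches. It turned to 0.906 by the stricter binomial test and 0.965 without the outermost 100 kb. For a fold enrichment of 5 or more, 2.41 became 1.02 with no fragment added and was within its interval otherwise. For backgrounds of 5 times or more, 2.17 became 2.62 with 0.5 Mb, 1.75 with 2 Mb and 1.96 without the outermost 100 kb. The median ratio of the ends, 3.20, became 3.15 with 0.5 Mb, 3.36 with 2 Mb and 3.32 at backgrounds under 5 times, below the interior each time. What caused the shifts was not tested. Leaving out each chromosome in turn gave 1.82 to 1.88 for a q of 0.05 or less and 1.19 to 1.34 for a -log10 q of 5 or more. The ratio of right to left ends stayed within its interval under all 4 alternatives for all listed peaks and for a q of 0.05 or less, and no alternative was run for it in other classes. The 3 alternatives on motifs and start sites were not run. At the genome-wide background fewer than 7 fragments could not reach a q of 0.05. No paired analysis was possible because each group had 1 sample.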

Other observations

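Chromosome 4, left out of the 24, had ends that differed less from its interior in background and in peaks at a q of 0.05 or less than the pooled ends of those 24 did. Peaks with a q of 0.05 or less numbered 16 at its right end and 16 at its left end, against 11.3 per Mb of its interior. No interval was set on this difference. Single chromosomes of the 24 had ratios of ends to interior from 1.20 to 2.68, a range that takes in chromosome 4. The share of listed peaks at the genome-wide background was 22.5% at the right end and 22.6% at the left, against 24.7% in the interior, and the median backgrounds were 1.28, 1.36 and 1.32. A fold enrichment of 5 or more was reached by 0 peaks at the right end, by 2 at the left end and by 33 in the interior. Per Mb this was 1 at its ends (0.121 to 3.61) and 0.434 in its interior (0.299 to 0.609), too few peaks to set beside the ratio of the other chromosomes.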
